A study of Mus musculus with 4 samples.

Results

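The mouse mitochondrial genome holds 37 annotated genes, and 13 of them were found on the target side of AGO2-CLASH chimeric reads in mouse mesangial cells (MMC). A transcript was included when the gene listed beside the read had a name starting with mt-, which gave 13 of the 8440 target genes listed in all. Both ribosomal RNAs (mt-Rnr1 and mt-Rnr2), 10 of the 13 protein-coding transcripts and 1 of the 22 transfer RNAs (mt-Tp) were among them. They were carried by 200 distinct reads that were sequenced 238 times, or 0.655% of the 36318 chimeric reads.

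Primary MMC, the contractile cells of the glomerulus, were taken from C57BL/6J mice, either wild type (WT) or miR-379KO, were grown in RPMI medium with foetal bovine serum, and received no treatment. The miR-379KO mice carried a CRISPR-Cas9 deletion that removes miR-379, the first miRNA of its cluster. The age of the mice when these cells were taken is not given in the sources used here. Each genotype had 2 libraries, A and B. Where 4 values follow each other in a sentence, they stand in library order, first WT (A, then B) and then miR-379KO (A, then B). In CLASH, a miRNA and the RNA paired with it are ligated while AGO2 holds both, so that 1 read carries a miRNA segment and a target segment. The label of the cells was checked against marker transcripts among the targets, whose read counts are not expression levels. Of 9 mesangial markers, 6 were listed as targets, led by Acta2 with 86 reads, while Itga8, Gata3 and Thy1 were at 0. The 5 endothelial, 5 tubule and 5 immune markers were all at 0, and 3 of 6 podocyte markers were listed, with 0 to 3 reads in a library. Chimeric reads listed with miR-379-5p numbered 2 in WT A and 1 in WT B, and 1 read in WT A was listed with miR-379-3p. None was found in miR-379KO A or B, and none had a mitochondrial target.

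Mitochondrial transcripts are made from long precursors inside the organelle, from which the rRNAs, mRNAs and tRNAs are cut. The rRNAs build the small (12S, mt-Rnr1) and large (16S, mt-Rnr2) subunits of the mitochondrial ribosome, and the mRNAs encode core subunits of the respiratory chain and of ATP synthase. The let-7 miRNAs and miR-98 share the seed GAGGUAG at bases 2 to 8, the part of a miRNA that opens pairing with a target, and they are abundant in many differentiated cells.

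The 5 miRNAs with the most reads on mitochondrial transcripts are shown with RefSeq's mature sequences (GRCm38.p6) and with bases 2 to 8 in capitals, because their seeds, or most of them, recur at sites described next.
let-7b-5p: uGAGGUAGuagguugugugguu
let-7c-5p: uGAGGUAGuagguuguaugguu
let-7a-5p: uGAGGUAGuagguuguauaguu
miR-155-5p: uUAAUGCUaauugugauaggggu
miR-196a-5p: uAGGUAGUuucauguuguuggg
The seeds of let-7 and miR-196a-5p are offset by 1 base, so that both can pair with the letters CTACCT.

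The mitochondrial sites that carried most reads are shown next, as the transcript strand that the deposited pairing gives for the miRNA named. Capitals mark the longest unbroken run of Watson-Crick pairs, and the positions refer to GRCm38, where all 37 mitochondrial transcripts matched the chromosome base for base. The sites were built from reads with a long miRNA segment, defined as a sense miRNA alignment of at least 18 nt, by joining overlapping pairings on a transcript.
mt-Rnr1 with let-7b-5p (12S rRNA, chrM:633-656, plus strand): atcgataaaccccgctCTACCTCA
mt-Atp6 with let-7c-5p (coding sequence, chrM:8195-8217, plus strand): atacatttacACCTACTACCcaa
mt-Rnr2 with miR-196a-5p (16S rRNA, chrM:1333-1353, plus strand): cgaaaccaaacgagCTACCTA
mt-Co2 with let-7c-5p (coding sequence, chrM:7383-7404, plus strand): caacaaacgACCTAaaacctgg
mt-Rnr2 with miR-155-5p (16S rRNA, chrM:1940-1962, plus strand): aaaaacatcacctcTAGCATTAc
mt-Nd4l with let-7b-5p (coding sequence, chrM:10148-10169, plus strand): aaaatctCAACCTACTACaatg
The run covered miRNA bases 1 to 8 at the mt-Rnr1 site, 1 to 7 at the miR-196a-5p site and 2 to 9 at the miR-155-5p site. At the coding sites it lay farther along the miRNA, over bases 4 to 13 on mt-Atp6, 9 to 13 on mt-Co2 and 5 to 15 on mt-Nd4l.

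Of these sites, the one in mt-Rnr1 stood out by its number of reads. It was paired with 58 reads of 46 distinct sequences, and the next site, in mt-Atp6, with 8. The mt-Rnr1 gene lies at chrM:70-1024 on the plus strand, and the pairing covers bases 564 to 587 of its 955. Of the let-7 family, let-7b-5p took 29 of the reads, let-7c-5p 14, let-7f-5p 6, let-7d-5p 4, let-7e-5p 4 and let-7a-5p 3. The letters CTACCTC, the match to let-7 bases 2 to 8, occur once on the transcript strand of the 37 mitochondrial transcripts, at bases 580 to 586 of mt-Rnr1 (chrM:649-655). The aligned target segment held this match in 45 of the 46 distinct reads and ended at base 585 in the remaining one.

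Reads from this site are printed whole, because the junction of both RNAs can be read from them. The let-7 part is in capitals and the 12S rRNA part in lower case.
mt-Rnr1 with let-7d-5p, miR-379KO A, sequenced 4 times: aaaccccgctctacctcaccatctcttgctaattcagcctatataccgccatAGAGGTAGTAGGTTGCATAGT
mt-Rnr1 with let-7b-5p, WT B, sequenced 3 times: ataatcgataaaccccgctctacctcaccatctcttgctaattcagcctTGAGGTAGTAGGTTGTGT
In both reads the rRNA came first and the miRNA followed from its first base with no base between them. All 46 distinct reads had this order, and 41 had no base between the segments. The target segments were 25 to 158 nt long (median 78 nt) and ended at 22 different positions. A distinct read of miR-379KO A carried let-7c-5p and let-7b-5p one after the other behind the 12S rRNA, and it is counted with both miRNAs above.

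The site was read in each library, although unevenly. It had 2 reads in WT A (1.23 per 10000 chimeric reads) and 14 in WT B (19.5). There were 21 in each miR-379KO library (33.2 in A and 32.4 in B). The low library was WT A, and WT B lay nearer to the miR-379KO libraries than to WT A. The level of let-7 itself was also lowest in WT A, with WT B next. Reads with a long let-7 or miR-98 segment and any target made up 133, 495, 677 and 721 per 10000 chimeric reads in library order. Set against these let-7 reads, mt-Rnr1 took 0.922%, 3.93%, 4.91% and 4.50%. WT A again stood apart, and WT B was close to the miR-379KO libraries on this scale. The part of the let-7 level in the mt-Rnr1 counts was not tested.

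The let-7 reads on mt-Rnr1 differed from other let-7 reads in how often a seed match was present. With targets outside the mitochondrial genome, 1095 distinct reads had a long let-7 segment, and a match to bases 2 to 8 was present in 27.5% of them, in 24.8% to 29.4% of those of a library. On mt-Rnr1 the share was 97.8%, and on the other mitochondrial genes it was 0% of 29 distinct reads. The transcripts of those other genes hold no such match, as given above, so their 0% was fixed by sequence. The reads at 1 site share 1 target sequence, so these shares are a description and were given no test. The target came before the miRNA in 100% of the mt-Rnr1 reads, in 82.8% of the other mitochondrial let-7 reads and in 60.2% of the remaining let-7 reads. The median minimum free energy was similar in all of them, at -20.34, -20.13 and -20.55. By number of long let-7 reads, mt-Rnr1 ranked 5 among 903 target genes. The ranks of the next mitochondrial genes were 28 for mt-Atp6 and 45 for mt-Co2.

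**Figure D1:**
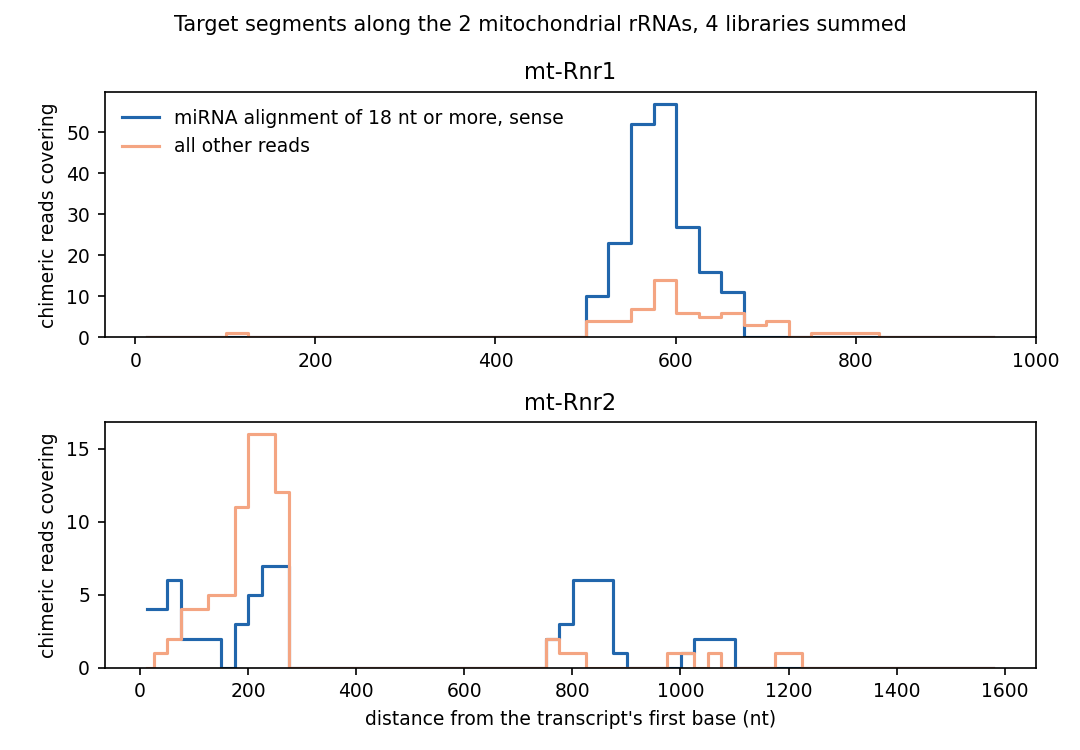
Chimeric reads whose target segment covers each point of mt-Rnr1 (top) and mt-Rnr2 (bottom), read at steps of 25 nt from the first base of the transcript and summed over the 4 libraries, for reads with a sense miRNA alignment of at least 18 nt (blue) and all other reads (orange). On mt-Rnr1 the blue line has 1 peak around the let-7 pairing at bases 564 to 587, while on mt-Rnr2 it has several lower ones.

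On mt-Rnr2 the long reads were spread over several sites and miRNAs. The gene lies at chrM:1094-2675 on the plus strand, and 21 of its 49 reads had a long miRNA segment. miR-155-5p, a miRNA best known from immune cells, had 10 of its 37 long reads on mt-Rnr2, more than on any of its other 25 target genes. Of these, 6 were paired at bases 847 to 869, none of them in WT, while miR-379KO library A held 2 and library B held 4. All 4 distinct reads held the match AGCATTA to bases 2 to 8. The mitochondrial transcripts hold 6 such matches, and 2 were covered by miR-155-5p reads, the other being in mt-Nd6 with 1 read. A further 4 reads were paired at bases 16 to 37, without a seed match, 3 of them in WT B. miR-196a-5p, a miRNA encoded in the Hox clusters, had 7 long reads at bases 240 to 260, which were 1, 0, 1 and 5 in library order. All of its 6 distinct reads held the match to bases 2 to 7 and none the match to bases 2 to 8. By number of long reads, mt-Rnr2 ranked 1 of 26 targets for miR-155-5p and 3 of 29 for miR-196a-5p. Both miRNAs were themselves most frequent in miR-379KO B, with 21.6 long miR-155-5p reads and 32.4 long miR-196a-5p reads per 10000 chimeric reads, against 6.74 to 9.48 and 6.95 to 10.4 in the other libraries.

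The remaining long sites were thin. On mt-Atp6, a subunit of the proton channel of ATP synthase, the 8 let-7a-5p and let-7c-5p reads were 1, 1, 1 and 5 in library order. On mt-Co2, the copper-binding subunit of cytochrome c oxidase, 6 let-7b-5p and let-7c-5p reads were 1, 0, 1 and 4. On mt-Nd4l, a small membrane subunit of complex I, all 5 let-7b-5p reads came from 2 distinct sequences. The more frequent of them is printed with the miRNA in capitals, since it shows a run of 11 pairs in the middle of let-7 without a seed match. Its first 50 bases are the mt-Nd4l segment, and the next 17 lie between the aligned segments.
mt-Nd4l with let-7b-5p, WT B, sequenced 4 times: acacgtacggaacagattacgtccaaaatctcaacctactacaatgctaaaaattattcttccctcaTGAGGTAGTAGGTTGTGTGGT
A let-7a-5p read on mt-Cytb, which encodes cytochrome b of complex III, is also shown. Its deposited pairing had no seed match either, and its longest run was 8 pairs over miRNA bases 8 to 15.
mt-Cytb with let-7a-5p, miR-379KO B, sequenced 2 times: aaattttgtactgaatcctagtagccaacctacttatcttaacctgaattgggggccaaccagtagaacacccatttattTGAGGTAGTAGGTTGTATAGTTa
The other sites with long reads, on mt-Nd2, mt-Nd4, mt-Co1, mt-Co3, mt-Nd5 and mt-Nd6 as well as on the genes above, had 1 to 3 reads each.

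Over all mitochondrial transcripts, the long reads were dominated by 1 family. let-7 and miR-98 made up 76% of the long miRNA segments (95 of 125, counting the read with both let-7c-5p and let-7b-5p for each of them), on 9 genes. miR-155-5p had 11 and miR-196a-5p 10, and the other 5 miRNAs had 1 or 2. Of the 99 alignments with a long segment, 96 began at the first base of the miRNA and 94 were identical to the mature sequence over the aligned stretch. In the 102 distinct reads without a long segment, 63 miRNAs were listed when 1 miRNA was taken for each read, with a median alignment of 13 nt. As 6 distinct mitochondrial reads were listed with more than 1 miRNA, this number is a minimum.

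A read of the highest count of each of the 4 leading genes is shown by its target segment alone, because the miRNA part was short, or was not one of the 5 leading miRNAs. The mt-Rnr1 segment is the lower-case part of the let-7d-5p read above, and the other 3 are given here.
mt-Rnr2 beside 13 nt of miR-193b-5p (chrM:1276-1364), sequenced 4 times in miR-379KO A: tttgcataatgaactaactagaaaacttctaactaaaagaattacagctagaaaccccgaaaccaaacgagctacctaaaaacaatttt
mt-Co2 beside 18 nt of miR-6380 (chrM:7175-7221), sequenced 2 times in WT B: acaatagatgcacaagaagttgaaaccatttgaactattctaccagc
mt-Atp6 beside 18 nt of miR-705 (chrM:8282-8325), sequenced 2 times in miR-379KO B: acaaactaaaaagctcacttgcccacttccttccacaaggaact
For mt-Co2 and mt-Atp6 other reads had the same count of 2. The mt-Rnr2 segment runs across the miR-196a-5p site. Reads without a long miRNA segment also covered the paired runs of both rRNA sites. There were 14 such reads with 7 miRNAs over bases 580 to 587 of mt-Rnr1, and 12 with 5 miRNAs over bases 254 to 260 of mt-Rnr2, with miRNA alignments of 12 to 15 nt.

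**Figure D2:**
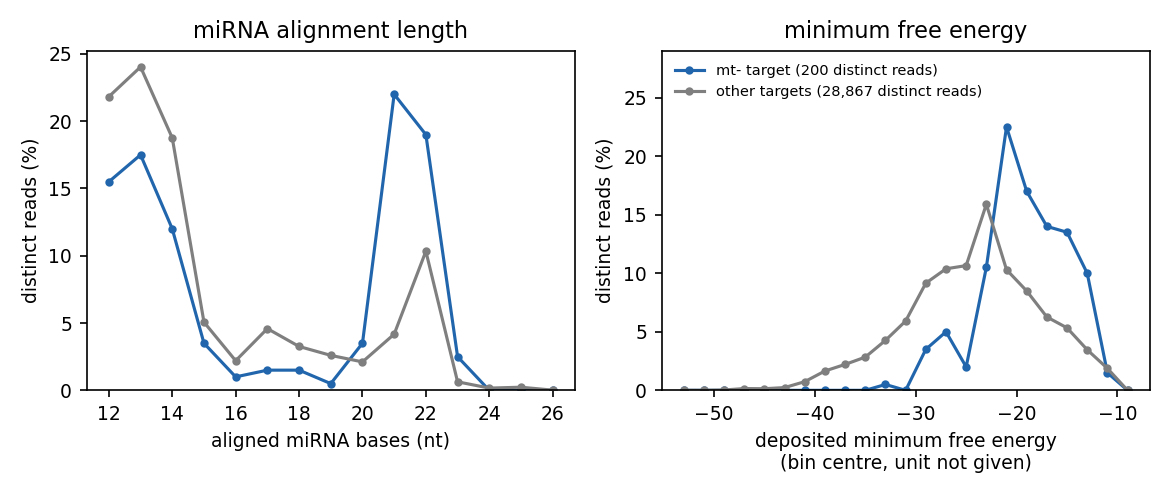
Share of distinct reads (%) by aligned miRNA length in nt (left) and by deposited minimum free energy in steps of 2 (right), for the 200 distinct reads with a mitochondrial target (blue) and the 28867 with other targets (grey). The mitochondrial reads have their highest share at 21 nt (22%), where the other reads have 4.17%.

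The mitochondrial reads were longer in the miRNA part and ran more often in sense than the reads with other targets. Over distinct reads, the target alignment was in sense for 95.5% of 200 mitochondrial reads and for 70.4% of 28867 other reads. The share was 92.7% to 98.5% in the single libraries, against 69.2% to 72.5% for other targets, so the ranges did not overlap. Long let-7 reads with targets outside the mitochondrial genome were in sense for 94.3%, and for 90.0% to 97.9% by library. A high sense share was thus not particular to the mitochondrial reads. The miRNA alignment was long in 49% of the mitochondrial and 22.4% of the other reads. The median aligned miRNA length was 17 nt against 14 nt, but this hid a split by library. It was 13 nt in WT A and 21 nt in each of the other libraries, while other targets were at 14 nt in all 4 libraries. Target segments had a median of 69.5 nt against 56 nt.

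The deposited pairing energies of the mitochondrial reads were weaker, that is less negative. The median minimum free energy was -19.6 for mitochondrial and -23.81 for other targets, in the deposited unit, which is not named. In library order it was -18.78, -21.24, -19.65 and -19.87, and -24.42 to -23.5 for other targets. Among long reads alone it was -19.92 against -23.5. A match to bases 2 to 7 of the listed miRNA was nevertheless present in more of the mitochondrial reads, at 49.5% against 30.0%, and 45 of the 99 distinct reads that had one were those of the let-7 site in mt-Rnr1. The match was sought with the whole mature miRNA, also where the read held another part of it. No p-value is given for these shares, since reads of 1 transcript are not replicates.

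A miRNA segment can also be part of a longer cellular RNA. The miRNA segment with 10 nt of read on each side matched the mouse genome outside annotated miRNA genes, base for base, in 25.5% of the mitochondrial and 43.1% of the other distinct reads. The difference was not seen in WT A, which held 33 of the 51 mitochondrial reads with such a match (50.8% against 51.0%). In the remaining libraries the shares were 4.35% to 15.5% against 34.2% to 37.4%. For long segments the shares were 1.02% and 12.9%, and for the short mitochondrial reads 49.0%. In 5 distinct reads the match was on the mitochondrial chromosome itself. The 10 reads of miR-8098, the miRNA with the sixth most mitochondrial reads, were all on mt-Co2, 8 of them in WT A. Their alignments were 13 or 14 nt long, began at base 5 of the miRNA, after part of its seed, and matched the genome in 9 of 10 reads.

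Antisense alignments were few. Of the 9 distinct reads that aligned to the opposite strand of a mitochondrial transcript, 3 were on mt-Nd5, 2 on mt-Nd6, 2 on mt-Tp, 1 on mt-Atp6 and 1 on mt-Cytb. None had a long miRNA segment. mt-Nd6 and mt-Tp are the only listed genes on the minus strand of the mitochondrial chromosome, so their antisense reads ran along the strand of the other 11 genes. Both reads of mt-Tp, the proline tRNA, were antisense, spanned the whole 67 nt of the gene and carried miR-1188-3p.

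The genes differed in how many reads they had for their length. Of the 6 with at least 10 reads, mt-Rnr1 had 83.8 reads per kb of transcript over the 4 libraries, mt-Co2 42.4, mt-Rnr2 31.0, mt-Atp6 26.4, mt-Co1 8.41 and mt-Nd5 5.48. These sums lean on WT A, the deepest library, which held 18 of the 29 mt-Co2 reads. As the mean over libraries of the share per 10000 chimeric reads and kb, mt-Rnr1 was at 28.97, mt-Co2 at 10.2 and mt-Rnr2 at 10.1. mt-Rnr2 was below mt-Co2 on this scale in both WT libraries and above it in both miR-379KO libraries. By number of reads, mt-Rnr1 ranked 29 and mt-Rnr2 66 of the 8440 target genes. The 7 mitochondrial genes with fewer than 10 reads (mt-Co3, mt-Cytb, mt-Nd2, mt-Nd4, mt-Nd4l, mt-Nd6 and mt-Tp) had 2 to 7 reads each, and those of them that are short stand high on such a scale with few reads, as mt-Tp does at 29.9 reads per kb with 2 reads. Of the 238 reads, 63 were also listed with a nuclear copy of the mitochondrial gene, so that their locus is uncertain. These were all reads of mt-Co2 (Gm28661), mt-Atp6 (Gm10925) and mt-Co3 (Gm28437), 5 of the 7 of mt-Nd4 and 4 of the 13 of mt-Co1. None of the reads of mt-Rnr1 or mt-Rnr2 was listed with another gene.

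The comparison of WT with miR-379KO asks whether a target RNA is bound by AGO2 in chimeras to a different extent without miR-379. In library order the chimeric reads numbered 16324, 7192, 6326 and 6476, of which 68, 32, 59 and 79 had a mitochondrial target. The share per 10000 chimeric reads was 41.7 for WT A (95% Clopper-Pearson bounds 32.4 and 52.8) and 44.5 for WT B (30.5 and 62.8). It was 93.3 for miR-379KO A (71.1 and 120) and 122 for miR-379KO B (96.7 and 152). Both miR-379KO libraries lay above both WT libraries and the intervals of the genotypes did not meet. The mean was 43.1 ± 2.01 in WT and 108 ± 20.3 in miR-379KO (SD, n = 2 each), a ratio of 2.50. An exact permutation test of 2 against 2 libraries cannot go below p = 0.333, and none was run. The intervals cover counting error alone and treat each read as an independent molecule. PCR reads without molecular identifiers are not independent molecules, so the intervals may be too narrow.

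The like totals of WT A and WT B were made up differently. Reads with a long miRNA segment were 12 of 68 mitochondrial reads in WT A (17.6%), 27 of 32 in WT B (84.4%), 34 of 59 in miR-379KO A (57.6%) and 50 of 79 in miR-379KO B (63.3%). Per 10000 chimeric reads, the long let-7 reads on mitochondrial targets numbered 4.29, 29.2, 44.3 and 57.1 in library order. The mitochondrial reads without a long segment numbered 34.3, 6.95, 39.5 and 44.8. For the long let-7 reads WT A was the lowest library, and for the reads without a long segment WT B was. Relative to all long reads, mitochondrial targets made up 35.0, 128, 197 and 293 per 10000, in the same order. Without let-7 and miR-98 reads, the mitochondrial share was 37.9, 16.1, 52.6 and 70.0 per 10000, a ratio of the means of 2.27. Both miR-379KO libraries stayed above both WT libraries on each of these scales per 10000 reads.

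**Figure D3:**
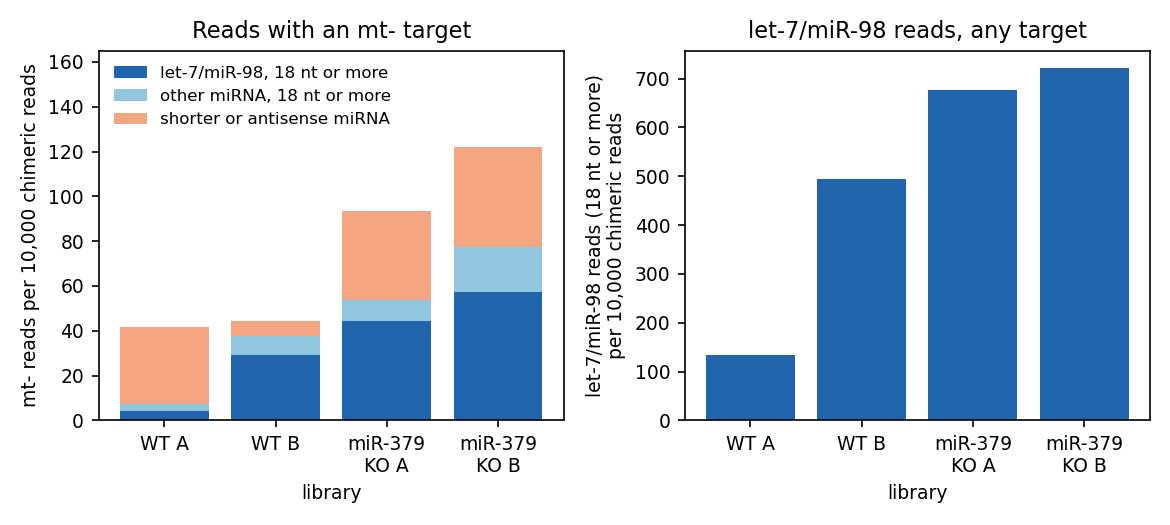
Left, reads with a mitochondrial target per 10000 chimeric reads of each library, stacked by let-7 and miR-98 segments of at least 18 nt (dark blue), other miRNA segments of at least 18 nt (light blue) and all other reads (orange). Right, long let-7 and miR-98 reads with any target per 10000 chimeric reads, which rise from 133 in WT A to 721 in miR-379KO B.

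Gene by gene, higher counts in miR-379KO were seen on both rRNAs and on mt-Atp6, and no gene passed the adjusted threshold. In the edgeR quasi-likelihood test over the 686 target genes with at least 10 reads, 0 genes had a Benjamini-Hochberg adjusted p under 0.05 (0%) and 24 had an unadjusted p under 0.05 (3.5%). Both miR-379KO libraries were above both WT libraries in 12.2% of the 686 genes. Of the 13 mitochondrial genes 6 were tested, of which 3 had an unadjusted p under 0.05 (mt-Rnr1, mt-Rnr2 and mt-Atp6) and 4 had both miR-379KO libraries above both WT libraries (the same 3 and mt-Co1). The count of 3 was 2 with the replicate block and with DESeq2, 1 without let-7 and miR-98 reads, and 0 of the 3 mitochondrial genes still tested without miR-379KO B. It was also 0 of 3 among reads listed with mitochondrial genes alone, where mt-Atp6 could not be tested. None had both miR-379KO libraries below both WT libraries, as 20.8% of the 686 genes did. As the filter on low counts admits genes through the libraries where they are high, these counts describe the 6 genes and no more. The labels call the replicates A and B and do not say whether they came from separate mice or separate cultures. The p-values thus measure the spread between these libraries.

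mt-Rnr2 had 13, 3, 17 and 16 reads in library order, or 7.96, 4.17, 26.9 and 24.7 per 10000 chimeric reads. The genotypes did not overlap. The fitted log2 fold change of miR-379KO over WT was 2.08 ± 0.83 (SE), with an adjusted p of 0.782 in edgeR, and it was 1.995 without the let-7 and miR-98 reads. It was 2.85 without WT A and 1.81 without WT B. With miRNA alignments of at least 16 nt it was 3.11, by distinct reads 1.71 and with no minimum count 1.61. mt-Rnr1 had 12, 17, 25 and 26 reads in the same order, or 7.35, 23.6, 39.5 and 40.1 per 10000, again without overlap. Its log2 fold change was 1.58 ± 0.73 (SE), with an adjusted p of 0.964 in edgeR. Without these reads it was 0.58, with an adjusted p of 0.985. The log2 fold change of mt-Rnr1 was 1.03 without WT A and 2.55 without WT B. Each of these fits sets 1 WT library against 2 miR-379KO libraries, so that the lone WT library is assumed to vary as the others do. The let-7 level of the libraries given above moved with the counts of mt-Rnr1. mt-Rnr1 reads without a long let-7 segment, of which 14 of 22 also ran across the let-7 run, numbered 10, 3, 4 and 5, or 6.13, 4.17, 6.32 and 7.72 per 10000 chimeric reads.

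mt-Atp6 had 3, 1, 3 and 11 reads, or 1.84, 1.39, 4.74 and 16.99 per 10000 chimeric reads. The genotypes did not overlap, but most of the reads were in miR-379KO B. The log2 fold change was 2.67 ± 1.10 (SE), with an adjusted p of 0.782 in edgeR. It was 3.52 without miR-379KO A, and without miR-379KO B the gene had too few reads to be tested. mt-Co1, the catalytic subunit of cytochrome c oxidase, had 5, 0, 2 and 6 reads, or 3.06, 0, 3.16 and 9.26 per 10000 chimeric reads. WT A and miR-379KO A were thus nearly level, the latter with fewer reads than the floor of 3. The gene had a log2 fold change of 1.69 ± 1.23 (SE) and an adjusted p of 0.964 in edgeR. It was 2.46 without miR-379KO A and was not tested without WT A or without miR-379KO B. Its count of 0 in WT B had a Clopper-Pearson upper bound of 5.13 per 10000, and the floor of 3 reads lay at 4.17, so that a lower level than in WT A was not detectable. mt-Co2 had 18, 2, 3 and 6 reads, with WT A the highest library and the genotypes overlapping. Its log2 fold change was -0.04 ± 0.92 (SE), with an adjusted p of 0.986 in edgeR, and took the other sign under 8 alternative settings. mt-Nd5, a proton-pumping subunit of complex I, had 5, 2, 1 and 2 reads, a log2 fold change of -0.23 ± 1.41 (SE) and an adjusted p of 0.969 in edgeR. The median log2 fold change was 1.63 over the 6 mitochondrial genes and -0.25 over the 686 genes tested. Both mt-Atp6 and mt-Co1 were highest in miR-379KO B and did not pass the filter on low counts without that library. The median of 1.63 thus describes these 6 genes and gives no direction for the mitochondrial genes as a set.

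**Figure D4:**
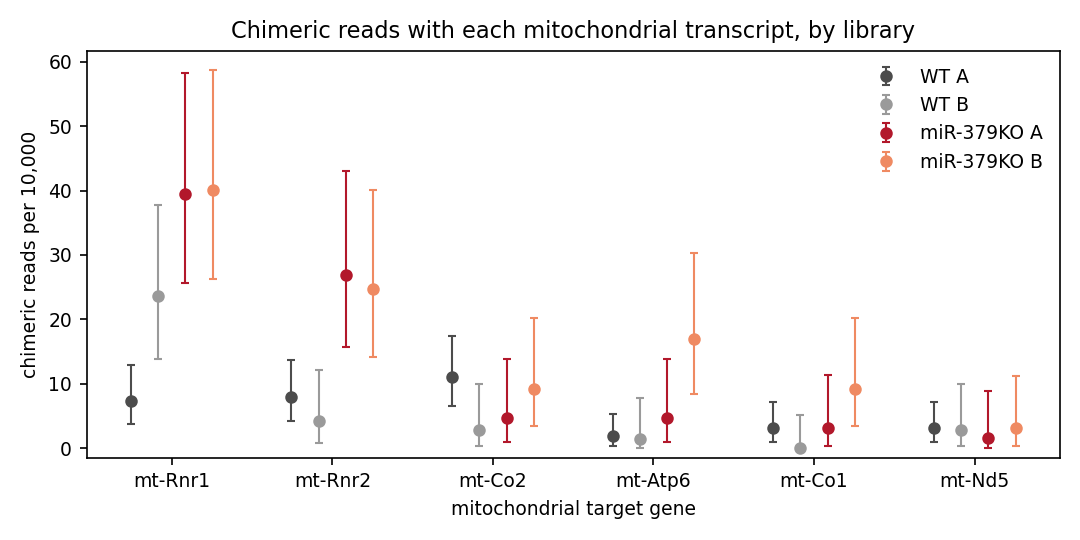
Chimeric reads per 10000 for the 6 mitochondrial genes with at least 10 reads, in both WT (greys) and both miR-379KO libraries (reds), with 95% Clopper-Pearson intervals as bars. mt-Rnr1, mt-Rnr2 and mt-Atp6 have both miR-379KO points above both WT points, while mt-Co2 is highest in WT A.

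Of the transcripts of nuclear genes that serve the same machinery, 9 had enough reads to be tested. Most of them passed the filter through WT A, the deepest library, so the values below describe these genes and give no direction for the lists. Of 79 nuclear-encoded subunits of oxidative phosphorylation (OXPHOS), 20 were listed as targets, with 78 reads in all, or 24.5, 22.2, 19.0 and 15.4 per 10000 in library order. The 3 that were tested (Atp5b, Atp5l and Ndufab1) had a median log2 fold change of -1.71. Ndufab1, the mitochondrial acyl carrier protein, had the most reads, with 15, 5, 1 and 2, and an adjusted p of 0.964 in edgeR. Of 78 mitochondrial ribosomal proteins, which assemble with both mitochondrial rRNAs, 21 were listed, with 91 reads, or 30.0, 26.4, 14.2 and 21.6 per 10000. Its tested members were Mrpl1, Mrpl13 and Mrpl15, with a median log2 fold change of -0.69. Of 37 genes for the upkeep of mitochondrial DNA and RNA, 14 were listed, with 58 reads, or 14.7, 16.7, 11.1 and 23.2 per 10000, so that miR-379KO held both the lowest and the highest library. Its tested members were Mterf3, Polg2 and Tbrg4, and their median was -0.27. None of these 9 genes had an adjusted or unadjusted p under 0.05 in edgeR, and the difference between these lists and the mitochondrial genes was not tested.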

How the data were processed

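Per the methods, the authors merged read pairs with pear, removed merged reads that Bowtie2 2.1.0 aligned whole to the mouse genome (GRCm38.p5) or GENCODE transcripts, and searched the rest by blastn on both strands against miRBase miRNAs and GENCODE transcripts. Each deposited read count is the whole number of merged reads of that sequence. The pair's deposited score was not analysed. The minimum free energy (unit other: not named) and alignment positions were used as deposited by the authors. The removal step takes out unligated mitochondrial reads that aligned whole, while unligated reads that did not align whole could remain.

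Each distinct read was counted once per gene and library with its deposited count. Shares are per 10000 chimeric reads (6326 to 16324 per library), with 95% Clopper-Pearson intervals and a floor of 3 reads, 1.84 to 4.74 per 10000. The test for target gene counts was the quasi-likelihood test of edgeR 4.0.16 under R 4.3.3 (TMM, genotype alone, Benjamini-Hochberg, at least 10 reads over 4 libraries, threshold 0.05) on the whole table. A read listed with several genes counted for each. Reads were compared with GRCm38.p6 by exact matching. Scripts used Python 3.11.15 and scipy 1.17.1, and were tested on simulated data.

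Genes with at least 10 reads, the 5 leading miRNAs, the highest-count reads of the 4 leading genes and up to 5 reads with long miRNA segments were named or printed by rule; 1 of these 5 reads was left out because 69 of its 122 bases had no alignment. The members and lists were chosen with earlier results of these data known. Alternatives were a replicate block, DESeq2 1.42.0, no TMM, no minimum count, leaving out libraries, distinct reads, miRNA alignments of at least 16 nt, sense targets, and single-gene reads. Leaving out genome-matched segments, segments under 18 nt, or let-7 reads was added after seeing the data.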

Additional observations from a re-analysis of the deposited data

How the results depend on the processing

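The mitochondrial share kept its direction, higher in miR-379KO, under every alternative run. The log2 ratio of the mean shares was 1.32, and 1.59 both with miRNA alignments of at least 16 nt (1.592) and with sense alignments of at least 18 nt (1.587). Leaving out 1 library gave 1.11 to 1.502. The number of mitochondrial genes past the adjusted threshold was 0, and leaving out 1 library gave 0 to 1 (mt-Rnr1 without WT B, where WT A alone stands for WT and is assumed to vary as the other libraries do). Over all target genes the count was 0, with 0 to 4 when 1 library was left out (4 without WT B) and 1 among reads listed with 1 gene or with mitochondrial genes alone. The replicate block by library letter gave 0 mitochondrial genes, and the letters pair no animals in the labels: the deviations of same-lettered libraries correlated at -0.0528 over 686 genes. Mitochondrial genes at an unadjusted p under 0.05 numbered 3, and 0 to 3 over the alternatives. DESeq2 also called 0, and 8 genes were at an unadjusted p under 0.05 there. For mt-Co2 the log2 fold change, -0.04 as reported, was 0.177 with the replicate block, 0.0509 with DESeq2, 2.39e-05 without TMM, 0.227 by distinct reads, 1.34 with alignments of at least 16 nt, 0.457 without genome-matched segments, 1.55 without WT A and 0.568 without miR-379KO A, and leaving out 1 library gave -0.504 to 1.55. The cause was not tested. The sense share, 95.5%, was 100% with alignments of at least 16 nt. The median miRNA length, 17 nt, ranged from 14 to 21 nt with 1 library left out. The seed match share, 49.5%, was 42.5% for bases 2 to 8. At these depths a gene with a few reads in a library has only a wide interval.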
